A study of Mus musculus with 10 samples.

Results

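Mitosis and G2/M genes were followed as a set of 42 listed genes. The set covered cyclins and kinases of mitotic entry, chromosome, kinetochore and spindle proteins, cytokinesis proteins and genes grouped with the anaphase-promoting complex. They were found by name in a deposited count table with 49671 gene rows, all 42 were present, and all 42 passed the filter that kept 11247 genes for testing. The cells were bone marrow-derived mast cells, that is, mast cells cultured out of marrow with interleukin 3 (IL-3), from wild-type C57BL/6 mice. All cultures were grown in IL-3, which the growth protocol gives as 5 ng/mL for 6 to 8 weeks and the sample source as 10 ng/mL. The age label also reads 6 to 8 weeks. The 10 libraries formed 6 groups: IL-3 alone (n = 2), 100 ng/mL stem cell factor (SCF, which binds the receptor Kit) for 72 h (n = 2), SCF with 1 ng/mL or with 10 ng/mL transforming growth factor beta (TGF-β) for 72 h (n = 2 each), and 1 ng/mL or 10 ng/mL TGF-β without SCF for 72 h (n = 1 each). Neither the amount of SCF in the combinations nor a time for IL-3 alone is labelled. Nothing labels replicates as independent cultures, so p-values cover only the spread among these libraries, which may be technical. By its title, the study asked how SCF and TGF-β act on a program like that of mucosal mast cells.

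To divide, a cell replicates its DNA in S phase, passes G2 and enters mitosis when cyclin B and the kinase Cdk1 are activated. Kinetochores then attach chromosomes to the spindle, the spindle checkpoint holds the anaphase-promoting complex in check until every chromosome is attached, and the complex then destroys securin and cyclin B so that sister chromatids part and the cell cleaves. Transcripts of most of these proteins are made late in the cycle under FOXM1, B-MYB and the DREAM complex and are low in resting cells, so in many tissues their summed level tracks how many cells are dividing. Mast cells grown in IL-3 divide slowly, and SCF, acting through Kit, is a known growth and survival factor for them.

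Levels are CPM, counts scaled to library size with TMM factors, and 3 counts, taken as the floor, came to 1.26 to 2.53 CPM. Libraries held 1237382 to 2323916 gene counts, and members took 0.0357% to 0.413% of them. The 12 mast cell identity genes were all detected in every library, at 58028 to 99199 CPM in sum. Of these, 3 rose and 2 fell with SCF at an adjusted p under 0.05, against 5.71% and 3.46% of all tested genes. With 1 and 10 ng/mL TGF-β added to SCF none rose, and 4 and 6 fell, against 2.75% and 4.59%. With TGF-β alone 1 rose and 4 fell (1.36% and 2.12% of all). In the combination against IL-3, 1 rose and 7 fell (11.0% and 11.2%). Summed markers were at most 5.05 CPM for neutrophils (8 genes, 4 at 0 in every library) and at most 3.85 CPM for fibroblasts (6 genes, 3 at 0). Macrophage markers (9 genes, 2 at 0) summed to 14.6 to 36.5 CPM, and those of erythroid cells and platelets (8 genes, 2 at 0) to 6.47 to 24.7 CPM. The genes listed for basophils (4 genes, none at 0 in every library) summed to 1312 to 1836 CPM. Nearly all of it was Itga2b, which was not called with SCF and is not specific to basophils. The sum is therefore not read as basophil signal. Of this list Mcpt8, a basophil protease, rose with SCF (2.80 ± 0.84, adjusted p = 0.0449, log2 fold change with its approximate standard error) and in the combination against IL-3 (4.17 ± 0.66, adjusted p = 0.000186), from 0.515 and 1.39 CPM in IL-3 to 6.97 and 6.27 CPM in SCF, while Prss34, also a basophil protease, fell with SCF (−2.10 ± 0.58, adjusted p = 0.0307). Progenitor markers (8 genes) summed to 4017 to 5813 CPM, and of the 6 tested Cd34 rose with SCF (0.62 ± 0.12, adjusted p = 0.00414). The 9 lymphocyte markers, 5 of them at 0 in every library, summed to 0.515 to 0.842 CPM without SCF and 3.48 to 12.4 CPM with it, mostly through Ncr1. The 6 eosinophil markers, 4 of them at 0 in every library, summed to 16.8 to 27.7 CPM without SCF and 3.24 to 13.9 CPM with it. The share of alignments that were not unique was 42.7% to 55.6% without SCF and 37.2% to 43.2% with it, and ribosomal protein genes took 1.17% to 1.59% and 1.93% to 2.29% of gene counts. Itga2b, Mcpt8, Prss34 and Cd34 were singled out after their values were seen. The part of these shifts and of the marker genes in the results was not tested. In bulk RNA, more cells in mitosis and more of each transcript per dividing cell cannot be told apart.

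Summed, the 42 genes were lowest without SCF, higher with SCF, and highest with SCF and TGF-β together. Their summed level was 998 and 383 CPM in the IL-3 libraries (replicates 1 and 2), 616 CPM with 1 ng/mL TGF-β alone and 1331 CPM with 10 ng/mL TGF-β alone. It was 1922 and 2132 CPM in SCF, 3152 and 3848 CPM once 1 ng/mL TGF-β was added to SCF, and 3458 and 3973 CPM once 10 ng/mL was added. All 6 libraries with SCF therefore lay above all 4 without it. Gene by gene, every library with SCF was above every library without it for 36 of the 42 members, an order that 9.38% of all tested genes showed. The exceptions were Pttg1, Cks2, Aurka, Ndc80, Anln and Ttk. The lowest library was the IL-3 replicate 2 for 32 members and the 1 ng/mL TGF-β library for 9, and the highest was a library with both factors for 41. The IL-3 replicate 1 was above replicate 2 for all 42 members, by a median of 1.35 on the log2 scale. Over all tested genes the median of this difference was 0 and its SD 0.544. The heat map by library shows this spread among the cultures without SCF.

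**Figure D1:**
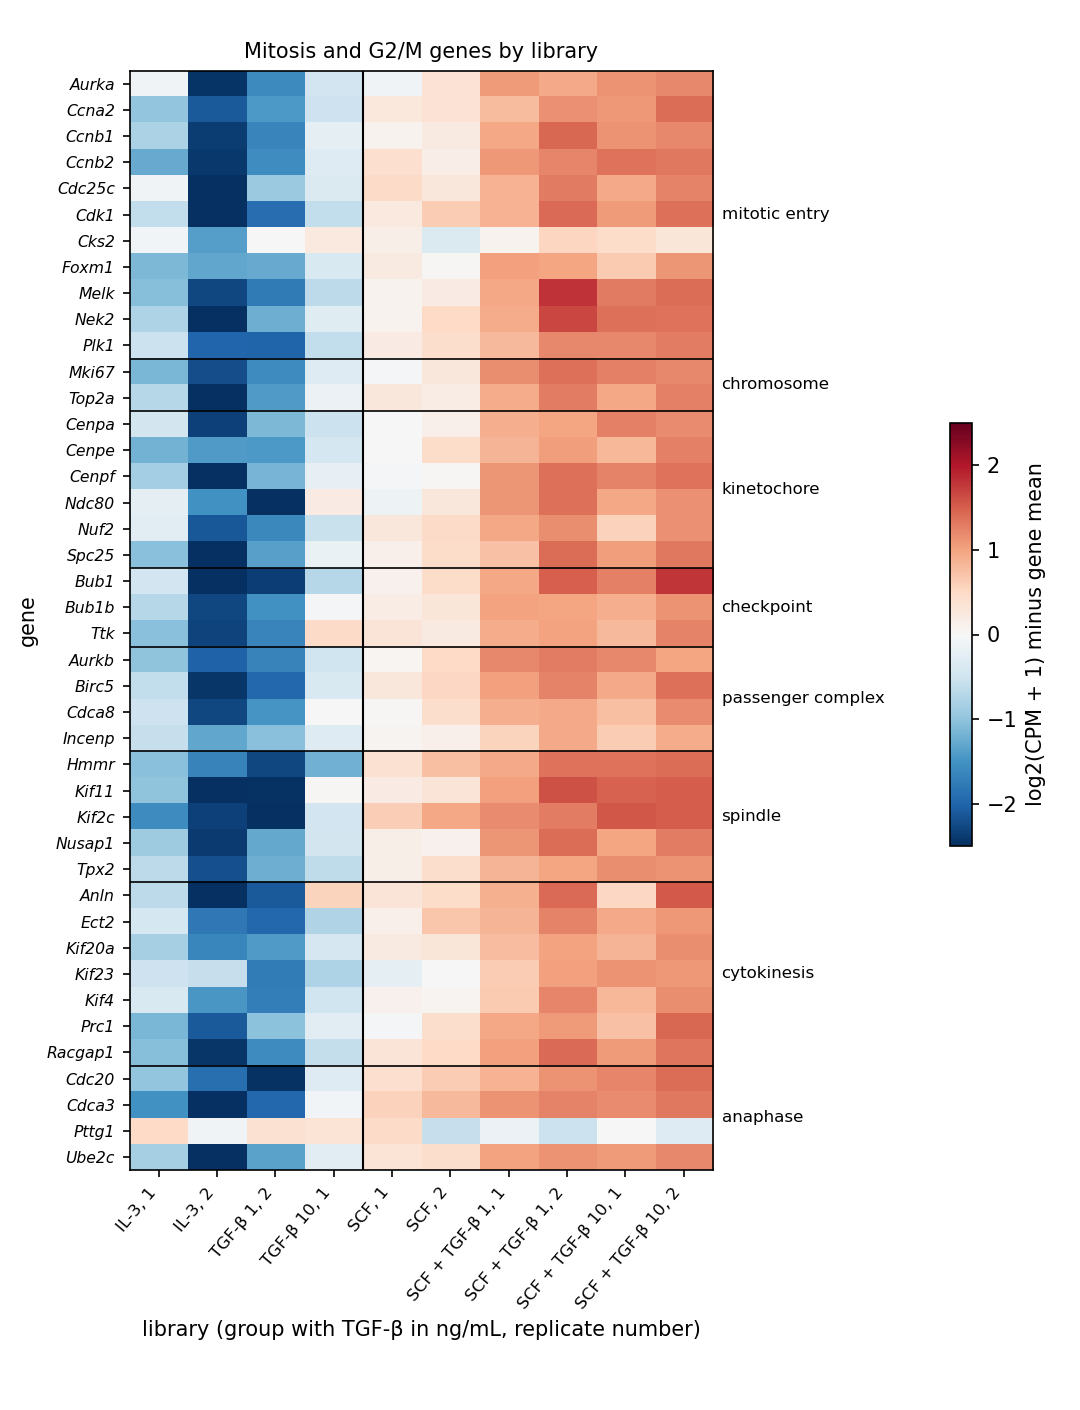
Each row is 1 of the 42 genes, grouped by role, and each column 1 of the 10 libraries. Colour gives log2(CPM + 1) minus the gene's mean over the libraries, with the scale ending at 2.5 in both directions. The 4 libraries left of the line had no SCF. Pttg1 and Cks2 depart from the pattern of the other rows.

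Promoters of such genes are known to carry a cell cycle genes homology region (CHR, read by the MuvB core of DREAM and B-MYB complexes), often with CCAAT boxes read by NF-Y. The RefSeq promoter table (GRCm38.p6) holds a window from 250 bases before to 50 bases after the start for 35 of the 42 members. It has no entry for Ccna2, Aurkb, Tpx2, Kif20a, Cdc25c, Foxm1 or Incenp. The 5 upstream stretches that follow are shown because the members moved together and because each holds a CHR-type match: of the 7 members with a whole match in the 100 bases before the start, they are those with the highest mean CPM over all 10 libraries. They read 5′ to 3′ along the gene and end at the base before the RefSeq start, with capitals marking the CHR letters (TTTGAA, its reverse complement TTCAAA, or TTCGAA) and the CCAAT letters (CCAAT or its reverse complement ATTGG), both strands being searched.
Top2a: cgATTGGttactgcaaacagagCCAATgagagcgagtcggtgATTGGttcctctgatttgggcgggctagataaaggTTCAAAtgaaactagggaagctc
Prc1: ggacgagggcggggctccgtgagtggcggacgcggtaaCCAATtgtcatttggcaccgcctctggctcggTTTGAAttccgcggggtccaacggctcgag
Ube2c: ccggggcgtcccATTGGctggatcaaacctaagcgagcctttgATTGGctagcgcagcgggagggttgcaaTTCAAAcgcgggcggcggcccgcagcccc
Cdk1: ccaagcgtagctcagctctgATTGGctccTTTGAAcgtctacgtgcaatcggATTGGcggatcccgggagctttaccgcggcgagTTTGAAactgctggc
Mki67: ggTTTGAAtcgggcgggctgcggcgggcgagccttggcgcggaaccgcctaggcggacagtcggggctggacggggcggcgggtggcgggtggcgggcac
The Top2a stretch lies at chr11:99024190-99024289 (minus strand), Prc1 at chr7:80294376-80294475 (plus strand), Ube2c at chr2:164769829-164769928 (plus strand), Cdk1 at chr10:69352913-69353012 (minus strand) and Mki67 at chr7:135716380-135716479 (minus strand). Prc1 has a further listed start, for which the CHR letters run across the start. In Top2a the CHR letters begin 23 bases before the start and the CCAAT letters 58, 78 and 98 bases before it. In Ube2c the CHR letters begin at 29 bases and the CCAAT letters at 57 and 88 bases, and in Prc1 they begin at 30 and at 62 bases. Cdk1 holds CHR letters at 15 and at 71 bases, with CCAAT letters at 48 and 80 bases, while the Mki67 stretch holds CHR letters at 98 bases and no CCAAT letters.

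Over the whole window, CHR letters stood in 26 of the 35 members (74.3%), against 21.7% of the 27025 genes in the promoter table and 16.9% of the 8388 tested genes with an entry. CHR letters wholly in the first 50 bases after the start were found in 18 members (51.4%) and in 2.87% of all genes. In the 100 bases before the start the shares were 20% of members and 7.18% of all genes. CCAAT letters stood in 25 members (71.4%) in those 100 bases, against 21.6% of all genes, and both kinds stood in 23 member windows (65.7%), against 8.61%. Of 62 other mitosis genes with an entry, 35 (56.5%) held CHR letters, 41 (66.1%) CCAAT letters and 27 (43.5%) both in the whole window. Of 45 S-phase genes with an entry, 8 (17.8%) held CHR letters, 27 (60%) CCAAT letters and 5 (11.1%) both, against 27 of 35 members (77.1%) and 41.1% of all genes for CCAAT letters. Pttg1, the member whose level did not follow the others, had neither kind in its window, and Melk, Nuf2, Birc5 and Nusap1, which did follow them, also had neither. These matches are descriptions of letters and not of bound sites.

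**Figure D2:**
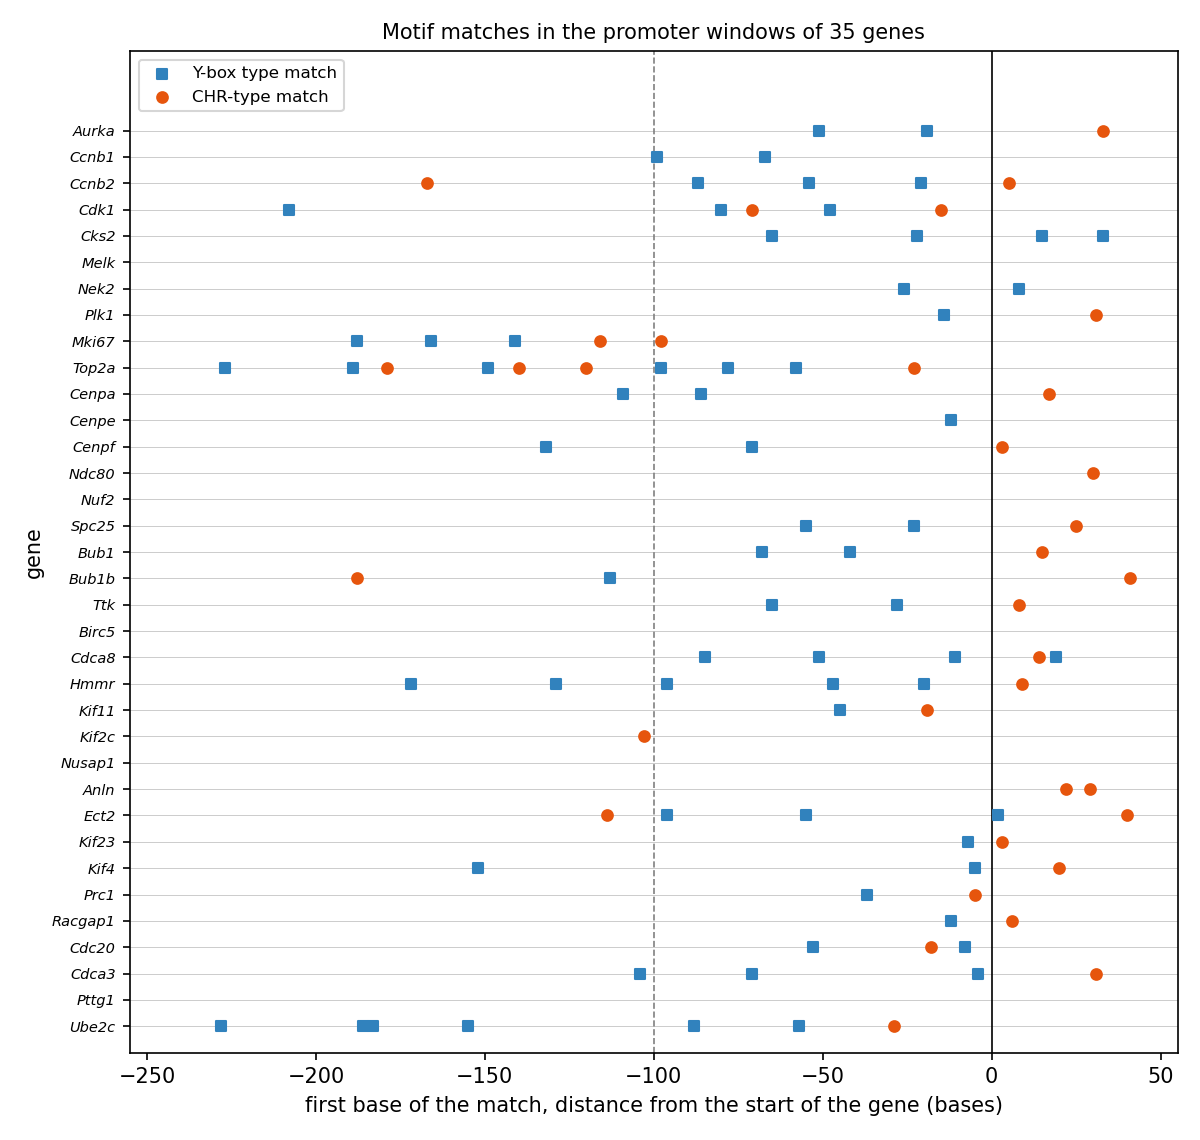
The horizontal axis is the distance of a match's first base from the gene's RefSeq start (first listed start where there are several), in bases, and each row is 1 of the 35 members with a promoter window. Circles are CHR-type matches and squares are matches of the CCAAT letters, called Y-box type in the key. Circles gather at and just after the start, and squares in the 100 bases before it (dashed line).

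Adding SCF to cells grown in IL-3 raised 34 of the 42 genes and lowered none, at an adjusted p under 0.05 over all tested genes. In the same comparison 5.71% of all tested genes rose and 3.46% fell. The median log2 fold change was 1.56 for the members and −0.02 for all tested genes, and both SCF libraries lay above both IL-3 libraries for 39 members, all but Pttg1, Cks2 and Aurka (26.3% of all genes). The size of this change rested on the IL-3 replicate 2. Without it 14 members were called with a median of 1.06, and without the IL-3 replicate 1, 37 were called with a median of 2.66. Without the SCF replicate 2, 18 were called, and DESeq2 called 21.

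In the values that follow, the pair for TGF-β alone is the 1 ng/mL and then the 10 ng/mL library, other pairs are replicates 1 and 2, and the lower and higher dose are 1 and 10 ng/mL TGF-β. Among the 11 genes of mitotic entry, 8 rose with SCF. Ccnb1, the cyclin B that drives entry, stood at 20.6 and 6.27 CPM in IL-3, 10.9 and 30.8 CPM in the libraries of TGF-β alone, 38.8 and 42.6 CPM in SCF, 72.4 and 99.7 CPM in SCF plus the lower dose and 80.8 and 85.2 CPM in SCF plus the higher dose. The IL-3 and SCF libraries did not overlap (1.51 ± 0.33, adjusted p = 0.00947, where the first number is the log2 fold change with its approximate standard error). All changes that follow are on this log2 scale. Cdk1, the kinase that cyclin B activates, stood at 36.5 and 9.06 CPM in IL-3, 14.3 and 36.2 CPM in the libraries of TGF-β alone, 67.2 and 88.4 CPM in SCF, 104 and 152 CPM in SCF plus the lower dose and 119 and 148 CPM in SCF plus the higher dose. Its highest library without SCF, at 36.5 CPM, was below its lowest with SCF (1.67 ± 0.35, adjusted p = 0.00718). The other called genes were Ccnb2 (2.02 ± 0.25), Nek2, a centrosome kinase (1.83 ± 0.47), Melk, a kinase (1.81 ± 0.47), Ccna2, the cyclin of S phase and G2 (1.72 ± 0.25), Foxm1, the transcription factor of late-cycle genes (1.48 ± 0.38), and Plk1, polo-like kinase 1 (1.39 ± 0.32). Aurka, a spindle pole kinase (0.91 ± 0.44, adjusted p = 0.22), Cdc25c, the phosphatase that activates Cdk1 (1.35 ± 0.58, adjusted p = 0.17), and Cks2, a small Cdk-binding subunit (0.47 ± 0.33, adjusted p = 0.436), did not pass. Cdc25c had 0 counts in the IL-3 replicate 2 and 11.3 CPM in replicate 1. In IL-3, Nek2 had 32 and 2 counts and Melk 12 and 3, so the sizes of their fold changes are poorly fixed.

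Both chromosome proteins rose with SCF. Mki67, which coats mitotic chromosomes and is the Ki-67 proliferation antigen, stood at 23.2 and 10.5 CPM in IL-3, 16.8 and 41.6 CPM in the libraries of TGF-β alone, 51.3 and 63.3 CPM in SCF, 118 and 136 CPM in SCF plus the lower dose and 126 and 121 CPM in SCF plus the higher dose. Its fold change with SCF was 1.70 ± 0.27, adjusted p = 0.00082. Top2a, the topoisomerase that untangles sister chromatids, stood at 65.9 and 16.7 CPM in IL-3, 40.4 and 98.6 CPM in the libraries of TGF-β alone, 133 and 125 CPM in SCF, 207 and 266 CPM in SCF plus the lower dose and 213 and 262 CPM in SCF plus the higher dose (1.58 ± 0.33, adjusted p = 0.00651). Both genes were lower in the IL-3 replicate 2 than in any other library.

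Of the 6 kinetochore genes, 5 rose with SCF: Spc25 (1.90 ± 0.37) and Nuf2 (1.26 ± 0.38), subunits of the NDC80 complex that grips microtubules, the kinetochore motor Cenpe (1.61 ± 0.32), Cenpf (1.51 ± 0.39) and Cenpa, the histone H3 variant of centromeres (1.12 ± 0.32). Ndc80 itself, which names that complex, stood at 13.4 and 4.88 CPM in IL-3, 0.842 and 18.5 CPM in the libraries of TGF-β alone, 14.4 and 19.4 CPM in SCF, 35.2 and 43.1 CPM in SCF plus the lower dose and 32.0 and 36.1 CPM in SCF plus the higher dose. Its IL-3 replicate 1 came close to the SCF replicate 1, and it was not called (0.80 ± 0.38, adjusted p = 0.219). Of the 3 checkpoint kinases, Bub1b (1.51 ± 0.32) and Ttk (2.12 ± 0.56) rose, while Bub1 stood just outside the threshold (1.46 ± 0.46, adjusted p = 0.0573). Ttk had 6 and 1 counts in IL-3, so the size of its fold change is poorly fixed. Bub1 had 11.8 and 2.09 CPM in IL-3 and 18.4 and 23.8 CPM with SCF.

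All 4 genes of the chromosomal passenger complex, which corrects wrong attachments and later directs cleavage, rose with SCF. These were its kinase Aurkb (1.72 ± 0.30), survivin, Birc5 (1.62 ± 0.34), borealin, Cdca8 (1.35 ± 0.34), and the scaffold Incenp, whose change was the smallest called (0.97 ± 0.24, adjusted p = 0.0173). All 5 spindle genes rose as well. Kif2c, a kinesin that takes microtubules apart, had the largest fold change of the 42 (3.03 ± 0.43, adjusted p = 0.000295) and stood at 3.09 and 1.39 CPM in IL-3, 0.842 and 7.71 CPM in the libraries of TGF-β alone, 17.4 and 22.6 CPM in SCF, 26.4 and 28.3 CPM in SCF plus the lower dose and 34.6 and 33.5 CPM in SCF plus the higher dose. In IL-3 this was 6 and 2 counts, so the size of its fold change is poorly fixed. The others were Hmmr (1.94 ± 0.30), the spindle pole kinesin Kif11 (1.89 ± 0.37), Nusap1 (1.54 ± 0.31) and Tpx2 (1.49 ± 0.29), which activates Aurora A on the spindle.

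Cytokinesis genes rose in 5 of 7 cases. Racgap1, the GTPase-activating subunit of centralspindlin, changed by 1.98 ± 0.29, adjusted p = 0.000423, anillin, Anln, by 1.79 ± 0.52, Prc1, which bundles midzone microtubules, by 1.74 ± 0.30, Kif20a by 1.43 ± 0.23 and Ect2, which activates RhoA at the cleavage site, by 1.37 ± 0.34. Anln had 21 and 2 counts in IL-3, so the size of its fold change is poorly fixed. Kif4, a chromosome-bound kinesin, was not called (0.90 ± 0.36, adjusted p = 0.141), nor was Kif23, the kinesin partner of Racgap1 (0.45 ± 0.25, adjusted p = 0.289). Of the 4 genes grouped with the anaphase-promoting complex, Cdca3 rose by 2.73 ± 0.30, adjusted p = 3.61e-05, from 10.8 and 4.18 CPM to 48.8 and 57.7 CPM. Cdc20, the activator of the anaphase-promoting complex, stood at 23.2 and 11.8 CPM in IL-3, 7.58 and 37.0 CPM in the libraries of TGF-β alone, 62.7 and 73.3 CPM in SCF, 86.2 and 102 CPM in SCF plus the lower dose and 109 and 124 CPM in SCF plus the higher dose (1.90 ± 0.25, adjusted p = 0.000179). Ube2c, the ubiquitin-conjugating enzyme of that complex, changed by 1.83 ± 0.32. Cdc20 and Ube2c overlap Elovl1 and Tnnc2 on the opposite strand, and Ccna2, Kif20a, Kif4, Nusap1 and Prc1 also overlap coding genes there. Reads from such partners cannot be told apart without strand information.

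**Figure D3:**
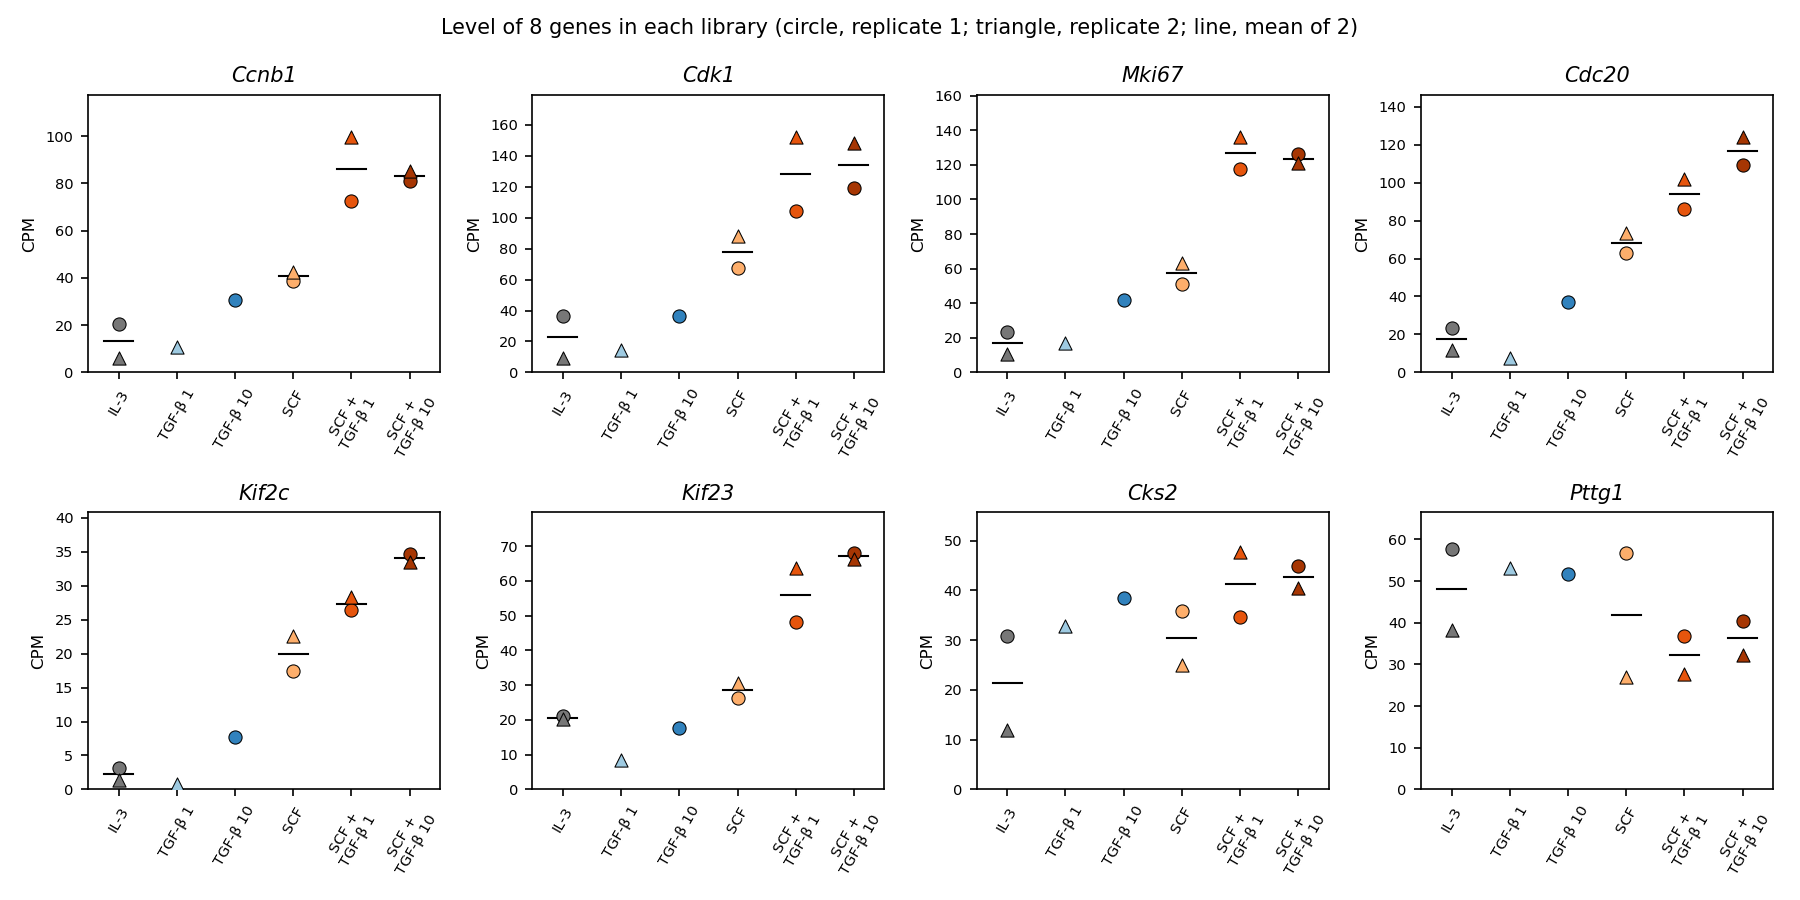
The vertical axes give CPM for 8 genes, starting at 0, and the horizontal axes the 6 groups, with TGF-β in ng/mL. Each point is 1 library and the line is the group mean. Ccnb1, Cdk1, Mki67, Cdc20 and Kif2c step up with SCF and again with SCF and TGF-β, and Kif23 stands above 30.7 CPM only with both factors. The Cks2 means also rise from IL-3 to SCF to both factors. Its IL-3 and SCF libraries overlap, however, and those with TGF-β alone lie above those in IL-3. Pttg1 does not follow the steps.

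TGF-β added to SCF raised a part of the members further. Against SCF alone, 10 of 42 rose with 1 ng/mL TGF-β and 21 with 10 ng/mL, and none fell. The background was 1.89% higher and 2.75% lower at 1 ng/mL, and 3.78% higher and 4.59% lower at 10 ng/mL. The median log2 fold change was 0.78 and 0.84, against 0.01 at 1 ng/mL and a value nearer 0 at 10 ng/mL over all tested genes. The fold change was positive for 41 members at each dose. Both libraries with 1 ng/mL stood above both SCF libraries for 40 members, all but Pttg1 and Cks2 (22.5% of all genes), and both with 10 ng/mL for 41, all but Pttg1 (24.3%). These doses share the SCF libraries, so their calls are not independent. The counts of calls depended on the libraries: without the SCF replicate 1 they were 0 and 3, and without the SCF replicate 2 they were 3 and 11. Without replicate 2 of SCF plus the lower dose 1 was called at that dose, and without replicates 1 or 2 of SCF plus the higher dose 10 and 6 were called at that dose. Without either IL-3 library they were 21 and 32, and DESeq2 called 2 and 7. The medians were steadier, at 0.64 to 0.91 and 0.74 to 1.02 over all libraries left out in turn.

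Mki67 changed by 1.15 ± 0.21, adjusted p = 0.00277 at 1 ng/mL and by 1.12 ± 0.21, adjusted p = 0.00218 at 10 ng/mL. Ccnb1 changed by 1.07 ± 0.26 and 1.03 ± 0.26 (adjusted p = 0.0226 and 0.0199). For both genes every library of the combination lay above both SCF libraries. Of the entry genes, Ccnb2 (0.85 ± 0.20 and 1.04 ± 0.20) and Melk (1.32 ± 0.33 and 1.25 ± 0.33) also rose at both doses, and Ccna2 (0.95 ± 0.21) and Plk1 (0.93 ± 0.26) were called at 10 ng/mL. Melk stood at 6.18 and 2.09 CPM in IL-3, 3.37 and 8.48 CPM in the libraries of TGF-β alone, 14.9 and 16.3 CPM in SCF, 28.0 and 51.3 CPM in SCF plus the lower dose and 36.0 and 38.3 CPM in SCF plus the higher dose. Its replicates were further apart at 1 than at 10 ng/mL.

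Among the kinetochore and checkpoint genes, Cenpf rose at both doses (1.27 ± 0.29 and 1.32 ± 0.29) and had the largest fold change at 10 ng/mL. It stood at 13.9 and 2.79 CPM in IL-3, 10.9 and 22.3 CPM in the libraries of TGF-β alone, 25.4 and 26.3 CPM in SCF, 56.9 and 68.4 CPM in SCF plus the lower dose and 62.2 and 67.4 CPM in SCF plus the higher dose. Ndc80 was called at 1 ng/mL (1.21 ± 0.31, adjusted p = 0.0285) and not at 10 ng/mL (1.02 ± 0.31, adjusted p = 0.0512), where its value was within the error of the lower dose. Cenpa (1.18 ± 0.27), Cenpe (0.84 ± 0.24) and Bub1 (1.29 ± 0.34) were called at 10 ng/mL. Of the passenger complex, Aurkb rose at both doses (0.97 ± 0.23 and 0.84 ± 0.23) and Incenp at 10 ng/mL (0.70 ± 0.21).

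Of the spindle genes, Kif11 (1.08 ± 0.27 and 1.25 ± 0.27) and Nusap1 (1.14 ± 0.25 and 1.04 ± 0.25) rose at both doses, and Hmmr (0.83 ± 0.23) and Tpx2 (0.86 ± 0.24) were called at 10 ng/mL. Kif2c, which had the largest change with SCF, did not pass here (0.46 ± 0.27, adjusted p = 0.458 and 0.78 ± 0.27, adjusted p = 0.0869). Of the cytokinesis genes Kif23 was called at both doses (0.96 ± 0.22, adjusted p = 0.0139 and 1.24 ± 0.21, adjusted p = 0.00105). Kif20a (0.75 ± 0.19), Prc1 (0.92 ± 0.24) and Racgap1 (0.80 ± 0.23) were called at 10 ng/mL. Cdc20 changed by 0.47 ± 0.20, adjusted p = 0.246 at 1 ng/mL and by 0.78 ± 0.20, adjusted p = 0.0203 at 10 ng/mL. No other gene grouped with the anaphase-promoting complex was called.

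**Figure D4:**
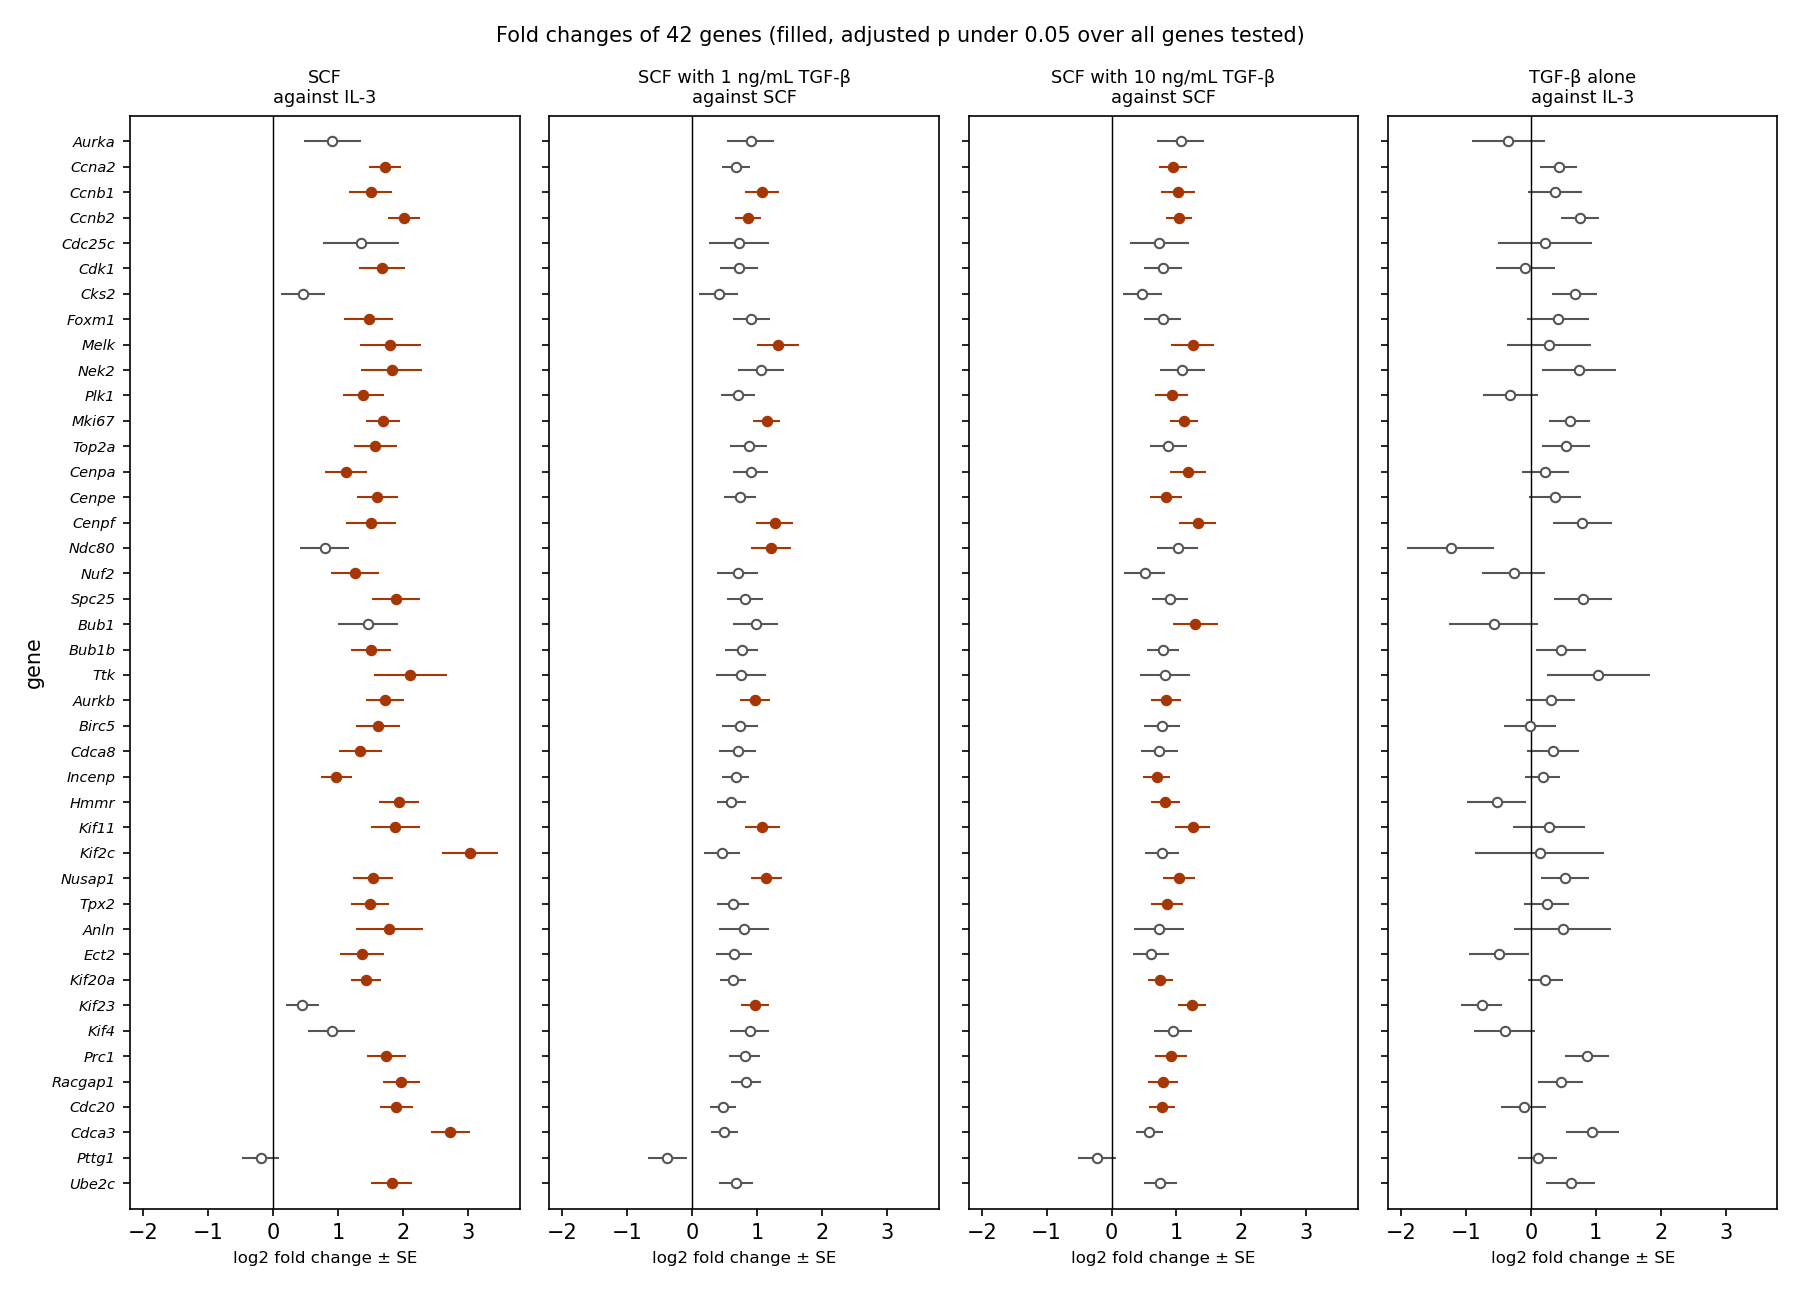
Each panel gives the log2 fold change of the 42 genes with its approximate standard error for 1 comparison, and filled points passed an adjusted p under 0.05. The SCF panel has 34 filled points, the panels of TGF-β added to SCF 10 and 21, and the panel of TGF-β alone none. The points of the last panel lie on both sides of 0 with wide errors.

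No difference between the doses of TGF-β was detected. In cells with SCF, 10 against 1 ng/mL gave no called member in either direction with edgeR, DESeq2 or limma-voom. No member had an unadjusted p under 0.05, against 313 of all 11247 tested genes. Member fold changes ran from −0.19 for Ndc80 to 0.32 for Kif2c. One gene in each direction was called among all tested genes (0.00889% higher and 0.00889% lower). Mki67 changed by −0.03 ± 0.19, Ccnb1 by −0.04 ± 0.24 and Cdc20 by 0.31 ± 0.19. Both 10 ng/mL libraries stood above both 1 ng/mL libraries for 7 of the 42 members (Cdc20, Kif2c, Ccnb2, Cenpa, Kif23, Tpx2 and Aurka). This was close to the share among all genes, 15.4%. They stood below for no member, against 15% of all genes.

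Without SCF, TGF-β changed no member by the threshold. Over both doses against IL-3, edgeR called 0 of 42 in either direction, as did DESeq2 and limma-voom, while 1.36% of all tested genes rose and 2.12% fell. Unadjusted p-values under 0.05 were found for 4 of the 42 members: Cdca3, Prc1 and Ccnb2 with positive and Kif23 with negative fold changes. Over all 11247 tested genes they were found for 1757. Each dose had 1 library, so the test borrows its estimate of spread from the remaining groups. The median fold change was 0.29, with 30 members positive, and it ran from −0.28 without the 10 ng/mL library to 1.33 without the IL-3 replicate 1, where 6 members were called. Mki67 changed by 0.60 ± 0.32, Ccnb1 by 0.37 ± 0.42 and Cdc20 by −0.11 ± 0.35, and the sign of each turned when a single library was left out. The 10 ng/mL library stood above the 1 ng/mL library for 41 of 42 members, with a sum 2.16 times as high. The 1 ng/mL library carries replicate number 2 and the 10 ng/mL library replicate number 1, so dose and replicate number cannot be told apart. In IL-3 alone the member sum of replicate 1 was 2.61 times that of replicate 2. In SCF, and in SCF plus the lower and the higher dose, it was 0.902, 0.819 and 0.870 times. Set against the IL-3 library of the same number, the 10 ng/mL library was higher for 30 members and the 1 ng/mL library for 33.

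With TGF-β in both arms, SCF raised 40 of the 42 genes and lowered none. Cks2 (0.23 ± 0.28, adjusted p = 0.589) and Pttg1 (−0.60 ± 0.26, adjusted p = 0.108) were not called. In this comparison 13.3% of all tested genes rose and 11.4% fell, and the median fold change was 2.15 for members, against −0.01 for all genes. Kif2c changed by 3.52 ± 0.42, adjusted p = 1.97e-05, Hmmr by 3.18 ± 0.31, adjusted p = 3.04e-06, Bub1 by 3.17 ± 0.46, adjusted p = 0.000119 and Ndc80 by 3.14 ± 0.46, adjusted p = 0.000127. Mki67, Ccnb1 and Cdc20 changed by 2.23 ± 0.23, 2.19 ± 0.30 and 2.63 ± 0.25. Leaving out each library in turn gave 35 to 40 calls and medians of 1.54 to 2.84. Kif2c and Ndc80 each had 1 count and Bub1 had 3 in the library of 1 ng/mL TGF-β alone, so their fold changes carry a large counting error.

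In the combination against IL-3 alone, all members but Pttg1 rose (41 of 42, 0 lower), with 11.0% of all tested genes higher and 11.2% lower, and the median was 2.48. Leaving out each library in turn gave 40 or 41 calls, but the median was 1.95 without the IL-3 replicate 2 and 3.55 without the IL-3 replicate 1. Mki67 changed by 2.83 ± 0.23, adjusted p = 1.66e-07, Ccnb1 by 2.56 ± 0.28, adjusted p = 5.39e-06 and Cdc20 by 2.52 ± 0.22, adjusted p = 4.74e-07. The ends of the called range were Kif2c at 3.65 ± 0.37 and Cks2 at 0.91 ± 0.28. Among the roles the medians were close, from 2.12 for the cytokinesis genes to 2.66 for the spindle genes.

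Whether TGF-β acted differently with and without SCF was tested as an interaction on the log2 scale. One member, Kif23, passed (1.86 ± 0.36, adjusted p = 0.0399) and none was lower, against 0.116% of all tested genes higher and 0.178% lower. Kif23 stood at 21.1 and 20.2 CPM in IL-3, 8.42 and 17.7 CPM in the libraries of TGF-β alone, 26.4 and 30.7 CPM in SCF, 48.1 and 63.7 CPM in SCF plus the lower dose and 67.9 and 66.4 CPM in SCF plus the higher dose. It was level in the IL-3 libraries, lower in both libraries with TGF-β alone, and above both SCF libraries in all libraries of the combination. The difference kept its sign when each library was left out. Of those settings, it passed only without replicate 1 of SCF plus the lower dose, with adjusted p from 0.0218 to 0.331 over all of them, and DESeq2 and limma-voom called no member. DESeq2 gave no adjusted p for Kif23 here, so its lack of a call says nothing about this gene. In limma-voom the Kif23 difference was 1.82 with adjusted p = 0.103. For Mki67 (0.54 ± 0.37, adjusted p = 0.696), Ccnb1 (0.68 ± 0.47, adjusted p = 0.699) and Cdc20 (0.73 ± 0.39, adjusted p = 0.6) no difference was detectable. The median over members was 0.50, with 37 positive, but it was −0.53 without the IL-3 replicate 1 and 1.10 without the 10 ng/mL TGF-β library, so its direction rested on single libraries.

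Pttg1 was the exception in the set. Securin, its product, holds sister chromatids together until the anaphase-promoting complex destroys it. Pttg1 stood at 57.6 and 38.3 CPM in IL-3, 53.1 and 51.6 CPM in the libraries of TGF-β alone, 56.7 and 26.9 CPM in SCF, 36.8 and 27.7 CPM in SCF plus the lower dose and 40.4 and 32.4 CPM in SCF plus the higher dose. Its highest library was the IL-3 replicate 1 and its lowest the SCF replicate 2, and it was called in no comparison, with fold changes of −0.19 ± 0.29 with SCF, −0.38 ± 0.30 and −0.22 ± 0.29 with TGF-β added to SCF, and 0.11 ± 0.30 with TGF-β alone. Cks2 stood at 30.9 and 11.8 CPM in IL-3, 32.8 and 38.5 CPM in the libraries of TGF-β alone, 35.8 and 25.1 CPM in SCF, 34.7 and 47.8 CPM in SCF plus the lower dose and 44.9 and 40.5 CPM in SCF plus the higher dose. It overlapped between IL-3 and SCF, and its libraries with TGF-β alone lay above its IL-3 libraries.

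Most other members had similar profiles. Over the 10 libraries, the log2 level of a member correlated with the mean of the others at a Pearson r above 0.9 for 38 of 42, given as a description because the points share libraries and groups. The exceptions were Ndc80 (0.887), Kif23 (0.861), Cks2 (0.745) and Pttg1 (−0.506). Of 6026 other tested genes averaging 20 CPM or more, 3.04% correlated above 0.9 with the members' mean profile. The 10 most alike were Rrm2 (r = 0.995), Kif22, Lmnb1, Cdca2, Asf1b, Pimreg, Pclaf, Tcf19, Bub3 and Ncaph (0.988). Per kilobase of exon, mean levels ran from 63.6 CPM for Ccnb2, 49.5 for Cks2 and 34.1 for Cdc20 down to 2.31 CPM for Cenpf and 2.00 CPM for Ttk.

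A wider list held 75 other mitosis genes, 74 of them tested. For the calls that follow, 5.71% of all tested genes rose with SCF and 1.36% with TGF-β alone. With 1 and 10 ng/mL TGF-β added to SCF, 1.89% and 3.78% rose. With SCF 31 rose and none fell, with a median of 1.16, and without the IL-3 replicate 2, 4 were called. Stil, a centriole protein, changed by 2.06 ± 0.44, the condensin subunit Ncapg by 2.15 ± 0.35 and Ckap2, a spindle protein, by 2.20 ± 0.42. With TGF-β added to SCF 13 rose at 1 ng/mL and 25 at 10 ng/mL and none fell. Without the SCF replicate 1 these were 1 and 3, and without the SCF replicate 2 they were 4 and 11. Cep55, which marks the midbody, changed by 1.36 ± 0.35 at 1 ng/mL, and Mastl, the greatwall kinase, by 1.40 ± 0.37 at 10 ng/mL. TGF-β alone gave 0 calls, and 0 by DESeq2, with 7 of the 74 genes at an unadjusted p under 0.05. Over all 11247 tested genes 1757 had such a p-value.

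Of 60 S-phase genes, all tested, 18 rose with SCF, 9 and 14 with 1 and 10 ng/mL TGF-β added to SCF, and 1 with TGF-β alone. The shares of all tested genes that rose were 5.71%, 1.89%, 3.78% and 1.36%, and 4.59% fell with 10 ng/mL added. Rfc2, a subunit of the clamp loader, fell with 10 ng/mL TGF-β added to SCF (−0.54 ± 0.12, adjusted p = 0.00818). The median fold changes were 0.76, 0.69 and 0.67 in the first 3 comparisons. Without the IL-3 replicate 2, 2 rose with SCF, and without the SCF replicate 1, 1 and 5 rose with 1 and 10 ng/mL TGF-β added. Rrm2, the ribonucleotide reductase subunit, changed by 1.87 ± 0.32, adjusted p = 0.00167 with SCF, Lig1, DNA ligase I, by 1.14 ± 0.25 and 1.38 ± 0.25 and thymidylate synthase, Tyms, by 1.00 ± 0.19 and 1.21 ± 0.19 with TGF-β added. Gins2, of the replicative helicase, was the S-phase gene called with TGF-β alone (0.92 ± 0.16, adjusted p = 0.0031). In sum the S-phase genes stood at 2716 to 3401 CPM in libraries without SCF and 3931 to 6203 CPM in those with it.

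The 10 G1 genes gave mixed calls: 3 rose and 1 fell with SCF, and 1 fell, and none rose, with TGF-β at either dose or alone. Over all tested genes 5.71% rose and 3.46% fell with SCF. With 1 and 10 ng/mL TGF-β added 2.75% and 4.59% fell, and with TGF-β alone 2.12%. The gene that fell with TGF-β was Ccnd2, which encodes cyclin D2. It rose with SCF (1.04 ± 0.15, adjusted p = 0.000282). When TGF-β was added it fell at 1 ng/mL (−0.74 ± 0.14, adjusted p = 0.00499) and at 10 ng/mL (−0.84 ± 0.14, adjusted p = 0.00111). It also fell with TGF-β alone (−0.82 ± 0.15, adjusted p = 0.00392). It stood at 531 and 558 CPM in IL-3, 367 and 257 CPM in the libraries of TGF-β alone, 999 and 1249 CPM in SCF, 626 and 724 CPM in SCF plus the lower dose and 575 and 685 CPM in SCF plus the higher dose. Its levels in the combined groups lay between those in IL-3 and in SCF, whereas Ccnb1 and Mki67 were highest there. With SCF, E2f3 (1.89 ± 0.50) and Ccnd3 (0.62 ± 0.13) rose and Rb1, the retinoblastoma protein that restrains E2F factors, fell (−0.89 ± 0.20, adjusted p = 0.0117). The list's sum was 2697 and 3104 CPM with SCF and 2290 to 2471 CPM with both factors. Of this, Ccnd2 held 999 and 1249 CPM with SCF and 575 to 724 CPM with both. The mean log2 CPM of the 10 genes overlapped, at 6.49 and 6.60 with SCF and 6.48 to 6.55 with both factors.

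**Figure D5:**
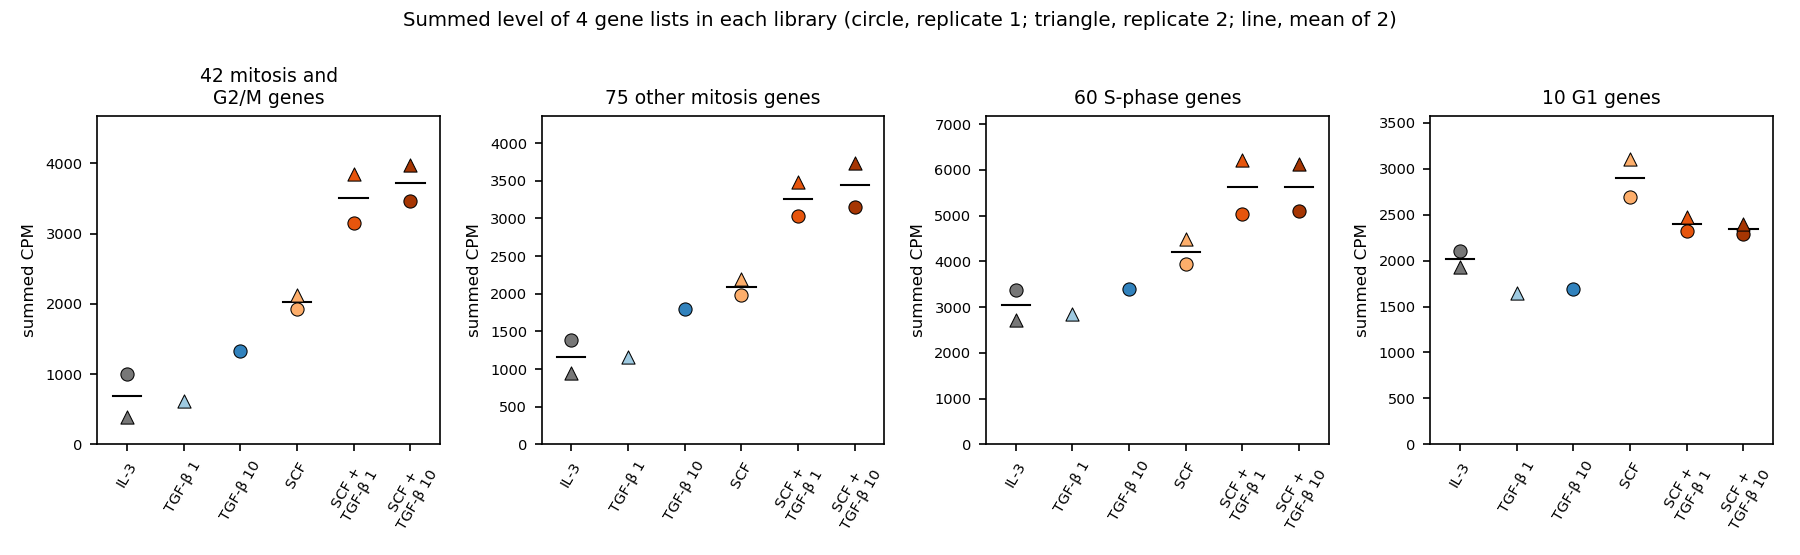
Points give the summed CPM of 4 gene lists in each library, by group, with axes starting at 0. In sum, the 42 members, the other mitosis genes and the S-phase genes are highest in the groups with both factors. The G1 sum is highest with SCF alone, at 2697 and 3104 CPM. The mean log2 CPM of the G1 genes overlapped, at 6.49 and 6.60 with SCF and 6.48 to 6.55 with both factors.

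Among 16 genes listed as brakes on division or on a step of the cycle, 15 were tested. With SCF 2 rose, with 1 ng/mL TGF-β added 1 rose and 1 fell, with 10 ng/mL 3 rose, and with TGF-β alone 1 fell. Over all tested genes 5.71% rose with SCF, and 1.89% rose and 2.75% fell with 1 ng/mL added. At 10 ng/mL 3.78% rose, and with TGF-β alone 2.12% fell. Counts of 1 are therefore not read as a result about the list. Fbxo5, an inhibitor of the anaphase-promoting complex, rose with SCF (1.32 ± 0.30) and with TGF-β added at 1 ng/mL (0.87 ± 0.23) and 10 ng/mL (0.91 ± 0.23). Fbxo5 itself accumulates in cycling cells, so its rise is not read as more restraint of division. Ccng1, a target of p53, rose with SCF (1.05 ± 0.16). At 10 ng/mL Pkmyt1, a kinase that inhibits Cdk1, also rose (1.31 ± 0.32), as did Fzr1, a late activator of the anaphase-promoting complex (0.94 ± 0.25). Btg2, an antiproliferative gene, stood at 38.1 and 30.0 CPM in IL-3, 50.5 and 87.8 CPM in the libraries of TGF-β alone, 38.8 and 16.3 CPM in SCF, 9.63 and 2.95 CPM in SCF plus the lower dose and 15.1 and 5.93 CPM in SCF plus the higher dose. It fell with 1 ng/mL TGF-β added to SCF (−2.05 ± 0.48, adjusted p = 0.0173), and without the SCF replicate 1 this was −1.27 with adjusted p = 0.334. The Cdk inhibitor Cdkn1a fell with TGF-β alone (−0.70 ± 0.13, adjusted p = 0.00502), from 455 and 457 CPM to 298 and 263 CPM. Against TGF-β alone, 6 of the 15 were higher and 4 lower in the combination (13.3% and 11.4% of all tested genes). Of the lower ones, Cdkn1b, which encodes p27, changed by −1.72 ± 0.33 (adjusted p = 0.00127).

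Of 16 genes of the DREAM and B-MYB machinery, 1 was lower with SCF and 1 higher with 10 ng/mL TGF-β added. None was called with 1 ng/mL or with TGF-β alone. Over all tested genes 3.46% were lower with SCF and 3.78% higher with 10 ng/mL added, so these counts are near the background. Rbl2, the p130 pocket protein of resting cells, fell with SCF (−0.86 ± 0.19, adjusted p = 0.00855), and Rbl1, the p107 protein, rose with 10 ng/mL TGF-β added to SCF (1.50 ± 0.31, adjusted p = 0.00456). In the combination against TGF-β alone 5 were higher and 1 lower, against 13.3% and 11.4% of all tested genes. E2f7 changed by 3.02 ± 0.51, adjusted p = 0.000422, Mybl2, which encodes B-MYB, by 1.85 ± 0.52, adjusted p = 0.0156 and Rbl2 by −1.09 ± 0.16, adjusted p = 0.000113. Mybl2 was at most 14.7 CPM, in SCF plus the lower dose, and had 1.68 and 5.39 CPM with TGF-β alone.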

How the data were processed

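RNA from cultured mast cells was made into full-length SmartSeq2 cDNA and Nextera XT libraries, sequenced as 2 x 38 base pairs, per the labels' protocols, which name no molecular identifiers. The submitters' processing notes name the tools STAR, HTSeq and DESeq2 and the build GRCm38 (mm10). Versions, annotation release and strand setting were not given in the sources used here. Read counts per gene were deposited by the authors. Rows naming no gene (5) held 73.4% to 83.6% of all counts and were left out.

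The main analysis used edgeR 4.0.16 under R 4.3.3: filterByExpr, TMM scaling, 1 mean for each of 6 groups over 10 libraries (4 residual degrees of freedom) and quasi-likelihood F tests of 8 contrasts, with Benjamini-Hochberg adjustment over 11247 genes and a threshold of 0.05. Standard errors are the log2 fold change divided by the root of F. The groups with 1 library took their spread from the others. TGF-β alone and, where both doses are named together, the combination are means of the doses. Loci came from GENCODE vM21 (GRCm38) and promoters from RefSeq. The script was tested on simulated data.

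Fold changes are named for Mki67, Ccnb1 and Cdc20 in every comparison, otherwise for called members, up to 5 a role, and for up to 3 called genes in each other list. For SCF against IL-3 all members of each role are given, and elsewhere some that were not called, chosen after their values were seen; Rfc2 was likewise named for its count of 1. Alternatives were DESeq2 size factors, DESeq2 1.42.0, limma-voom (limma 3.58.1), no filter, no 50 most abundant genes, fits of the compared groups alone, leaving out libraries in turn, a replicate block, CPM by total count, and a shorter promoter window. The members, lists and promoter rule were chosen with earlier results of these data known, and the fit without both replicate 2 libraries of IL-3 and of TGF-β alone was added after the data were seen.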

Additional observations from a re-analysis of the deposited data

Results flagged for a closer look

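The effect of TGF-β differed with and without SCF for Kif23, the kinesin of centralspindlin, by the interaction test in edgeR (log2 difference of 1.86, adjusted p = 0.0399). Its value was 1.32 to 2.39 over 16 alternatives and was past the threshold in 5 of them. The interaction was also called for Btg2, an antiproliferative gene, in the opposite direction (−2.67, adjusted p = 0.0409). Over 16 alternatives it was −3.24 to −1.88 and past the threshold in 8. Btg2 stood at 38.1 and 30.0 CPM in IL-3, 50.5 and 87.8 CPM with 1 and 10 ng/mL TGF-β alone, 38.8 and 16.3 CPM in SCF, 9.63 and 2.95 CPM in SCF plus the lower dose and 15.1 and 5.93 CPM in SCF plus the higher dose. DESeq2 gave no adjusted p for the Kif23 or the Btg2 interaction and is not among the 16 alternatives of either. No group had the 4 libraries needed to test for outlying libraries.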

How the results depend on the processing

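Of 223 fold changes followed over 3995 combinations with an alternative, 3637 kept direction and side of the threshold, 344 lost the call and 14 changed sign. Counts of called members moved by over 1.5 times under these settings. With DESeq2 they were 21 of 42 higher with SCF and 2 and 7 with 1 and 10 ng/mL TGF-β added to SCF. For the interaction they were 0 with DESeq2, which gave Kif23 no adjusted p, and 0 with limma-voom. With no filter they were 29 and 32 for TGF-β added to SCF and 1 for TGF-β alone. With only the groups compared they were 19 and 32, 1 for TGF-β alone, and 1 lower for the combination against TGF-β alone. Without both replicate 2 libraries of IL-3 and TGF-β alone they were 13 with SCF, 20 and 32 with TGF-β added, and 0 for the interaction. Leaving out each library in turn, counts that did and did not move so far ranged over 14 to 37 higher with SCF, 0 to 21 and 3 to 32 with 1 and 10 ng/mL TGF-β added, 0 to 6 with TGF-β alone, 35 to 40 against TGF-β alone, 40 to 41 against IL-3 and 0 to 1 for the interaction. The cause of these shifts was not tested.

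The replicate numbers were not taken as pairs, since the labels tie them to no shared batch and any 2 groups share only 2 numbers. Deviations of same-numbered libraries correlated at −0.003 to 0.022 between IL-3 and the groups with SCF, and at 0.197 to 0.231 among the groups with SCF. A replicate block moved the count with 1 ng/mL TGF-β added to SCF from 10 to 21 and with 10 ng/mL from 21 to 31, gave 35 with SCF, and called Pttg1 as lower in the combination against TGF-β alone (1 member, −0.64, adjusted p = 0.016).

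Among the fold changes followed, which were those of called genes and of Mki67, Ccnb1 and Cdc20 in every comparison, sign changes were found for the last 3 genes where they were not called. Other members changed sign too: leaving out each library in turn, 9 to 41 members were positive with TGF-β alone, 10 to 41 for the interaction and 17 to 37 for 10 against 1 ng/mL. Leaving out each library in turn, the fold change with TGF-β alone against IL-3 ran from −1.25 to 1.03 for Cdc20, −0.38 to 1.53 for Ccnb1 and −0.055 to 1.33 for Mki67. The interaction ran from −0.19 to 1.19 for Mki67, −0.48 to 1.43 for Ccnb1 and −0.41 to 1.87 for Cdc20. For 10 against 1 ng/mL with SCF, it ran from −0.15 to 0.074 for Mki67 and −0.27 to 0.20 for Ccnb1. Without both replicate 2 libraries, Cdc20 was 0.68 with TGF-β alone and −0.051 for the interaction. CPM by total count were 0.917 to 1.05 times those given. With 100 bases before the start in place of the whole promoter window, CHR letters stood in 20% of members and both kinds in 17.1%.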
